A study of Mus musculus with 12 samples.

Results

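Insulin receptor signalling in isolated mouse islets was followed through 8 genes, Insr, Igf1r, Irs1, Irs2, Pik3r1, Akt1, Akt2 and Foxo1, found by their exact names among the 24503 genes measured. All 8 were present in every library and passed the filter on low counts. RNA sequencing had been done on 12 libraries from isolated C57BL/6 mouse islets, 2 mice in each of 6 groups. Wild-type islets were at low glucose (2G, labelled untreated, with no concentration or time stated), at 11 mM glucose for 4 h (11G), or at 11 mM glucose for 4 h with added diazoxide (11G+D) or FK506 (11G+FK). Genetically modified islets carrying channelrhodopsin-2 specifically in beta cells, a channel that light opens, were left untreated (ChR2(-)LIGHT) or were stimulated with intermittent light over 40 min (ChR2(+)LIGHT). The labels state neither the promoter behind channelrhodopsin-2 nor the glucose concentration of these islets, and they give no ages. Diazoxide opens ATP-sensitive potassium channels and so hyperpolarises the beta cell, and FK506 inhibits calcineurin, a phosphatase activated by calcium. The 4 wild-type libraries with 1 mouse number came from the same animal, as did the pair of light libraries with 1 mouse number.

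As background, insulin and the insulin-like growth factors bind the receptors encoded by Insr and Igf1r, which phosphorylate the adaptor proteins IRS1 and IRS2. These recruit phosphatidylinositol 3-kinase (PI3K), whose main regulatory subunit is the product of Pik3r1, and the lipid it makes brings the kinases AKT1 and AKT2 to the membrane, where they phosphorylate FOXO1 and keep it out of the nucleus. In mice Irs2 is needed to maintain beta cell mass. Its transcription in rodent islets is known to respond to CREB with its coactivator CRTC2 and to calcineurin with its NFAT factors, both of which follow membrane depolarisation and calcium entry.

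Read totals were 15196061 to 22892255 counts per library, and between 18997 and 20486 genes had at least 1 read. The islet label matched the marker genes: the 10 beta cell markers were read in every library and took 7.41% to 11.9% of all counts. Acinar cells of the exocrine pancreas were represented by 14 of 15 listed markers in the tables, which together took 0.00631% to 0.109% of counts. The acinar factor gene Ptf1a was the marker not found by name, so no count was available for it. Because whole islets were sequenced, fewer cells of a type and less RNA per cell cannot be told apart. With 2 mice per group, p-values from fits with a term for the mouse measure the spread of the within-mouse changes. The offset between mice is removed by that term.

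On a scale corrected for gene length and library size (FPKM), the 8 genes fell into 4 tiers. Akt1, which encodes a central kinase of the pathway, was the most abundant, with a mean of 82.1 FPKM over the 12 libraries and a range of 66.2 to 99.8. Akt2, the isoform best known for insulin's metabolic actions, followed with a mean of 50.5 FPKM and a range of 44.3 to 56.9. The range of Akt1 lay wholly above that of Akt2, and that of Akt2 wholly above every other member.

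The middle tier held 5 genes whose ranges overlapped: Irs2 had a mean of 15.4 FPKM, Igf1r 14.1, Pik3r1 11.5, Insr 9.68 and Foxo1 8.32. Irs1 stood at the bottom with a mean of 0.530 FPKM and a highest value of 0.806, below every other member in all 12 libraries. Irs2 exceeded Irs1 by between 11.8 and 52.5 times within a library, so Irs2 was the main of the 2 adaptor transcripts in these islets. Among all genes measured, the mean of Irs2 lay at the 81.2 percentile and that of Irs1 at the 42.1 percentile.

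The members also differed in how much they moved. The highest library exceeded the lowest by 6.95 times for Irs2, the widest range of the 8, by 5.27 times for Irs1 and by 4.31 times for Igf1r. Pik3r1 ranged over 2.22 times, Insr over 1.79 times, Foxo1 over 1.68 times, Akt1 over 1.51 times and Akt2 over 1.28 times. The wide range of Irs1 rested on 32 to 162 reads per library, against 280 to 2615 for Irs2.

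**Figure D1:**
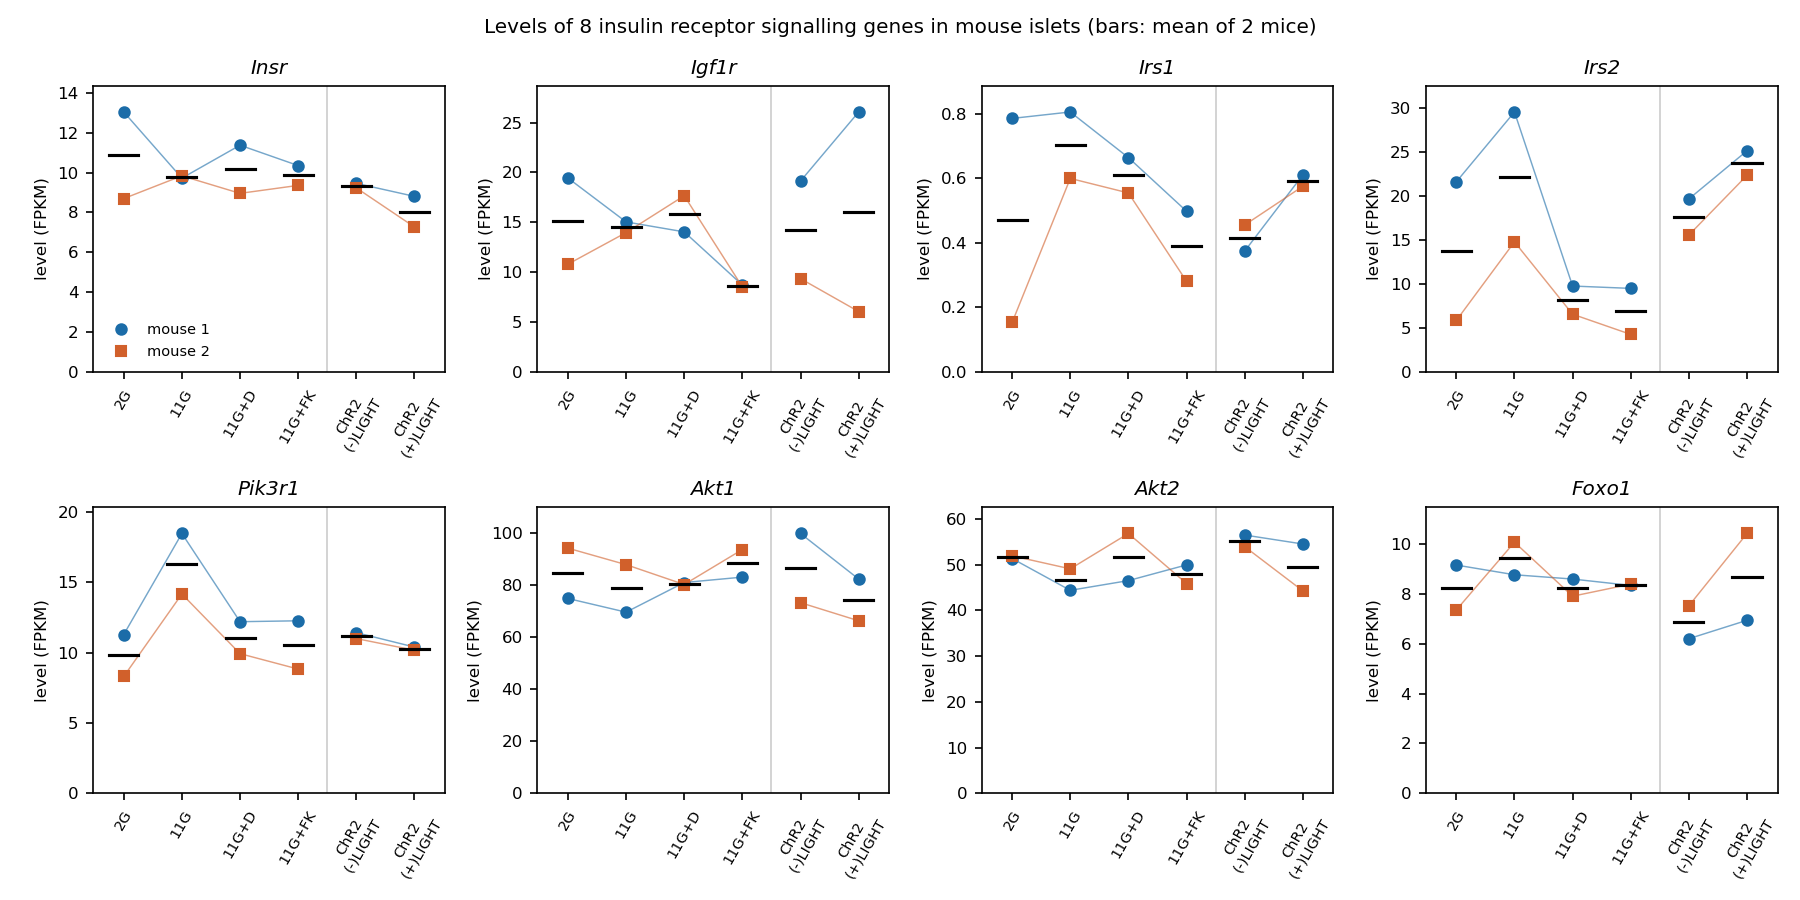
Level of each of the 8 genes (vertical axis, FPKM, from 0) in the 6 groups (horizontal axis), with mouse 1 as circles, mouse 2 as squares, lines joining libraries of 1 animal and black bars at the mean of 2 mice. Irs2 and Pik3r1 peak at 11G in both wild-type mice and lie lower with diazoxide or FK506, whereas Akt1, Akt2, Insr and Foxo1 stay within a narrow band.

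Irs2 (ENSMUSG00000038894) is listed on chromosome 8 from 10986980 to 11008458 on the minus strand; the tables name no genome build. At low glucose it measured 21.6 FPKM in mouse 1 and 5.83 in mouse 2. At 11 mM glucose it measured 29.5 FPKM in mouse 1 and 14.8 in mouse 2. Both animals were higher at 11 mM glucose, but mouse 1 was above mouse 2 throughout, and its low-glucose value exceeded the 11G value of mouse 2, so the groups overlapped.

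With diazoxide Irs2 was 9.75 FPKM in mouse 1 and 6.54 in mouse 2, and with FK506 it was 9.48 and 4.25. All 4 of these libraries lay below both 11G libraries. In the islets with channelrhodopsin-2, Irs2 was 19.7 FPKM in mouse 1 and 15.6 in mouse 2 without light, and 25.1 and 22.3 under light. The lit libraries lay above the unlit ones in both animals, without overlap.

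Ordered by group mean, Irs2 stood at 23.7 ± 1.97 FPKM (SD, n = 2) under light, 22.2 ± 10.4 at 11G, 17.6 ± 2.90 without light, 13.7 ± 11.2 at 2G, 8.15 ± 2.27 with diazoxide and 6.87 ± 3.70 with FK506. Each group overlapped its neighbour in this order, so no adjacent pair stood apart beyond the spread between mice. The comparisons within an animal given below remove the offset between mice. Levels were compared across the wild-type and the modified islets as values alone, since strain modification and treatment differ together.

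Sequences just upstream of 3 members are shown. Irs2 and Pik3r1 were the members that passed in the main edgeR fit described below, and Irs1 is the paralog of Irs2 with the lowest level. They are the 250 bases before the RefSeq start site on the gene's own strand (GRCm38.p6), and RefSeq promoter entries were found for 7 of the 8 members. Both strands were searched for each motif, and capitals mark the E-box CACGTG, a palindrome bound by helix-loop-helix factors such as TFE3 and SREBP-1, both known as regulators of Irs2 in mouse liver.
Irs2, chr8:11008930-11009179, minus strand: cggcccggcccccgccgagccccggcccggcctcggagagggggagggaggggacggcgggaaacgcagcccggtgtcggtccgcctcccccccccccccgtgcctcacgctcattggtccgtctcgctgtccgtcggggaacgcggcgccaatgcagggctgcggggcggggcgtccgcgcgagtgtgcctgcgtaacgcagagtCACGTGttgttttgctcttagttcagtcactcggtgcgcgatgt
Irs1, chr1:82291440-82291689, minus strand: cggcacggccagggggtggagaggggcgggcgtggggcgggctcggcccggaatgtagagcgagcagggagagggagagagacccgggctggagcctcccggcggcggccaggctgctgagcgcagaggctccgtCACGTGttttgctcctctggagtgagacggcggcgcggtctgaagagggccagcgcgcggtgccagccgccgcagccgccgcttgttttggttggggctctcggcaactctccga
Pik3r1, chr13:101768218-101768467, minus strand: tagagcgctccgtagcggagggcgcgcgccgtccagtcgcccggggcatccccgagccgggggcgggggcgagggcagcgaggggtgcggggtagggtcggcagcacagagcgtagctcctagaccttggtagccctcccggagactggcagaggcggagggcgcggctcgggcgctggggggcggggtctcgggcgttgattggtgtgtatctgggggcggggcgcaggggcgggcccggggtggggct

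Counted back from the start site, the E-box lay at -44 to -39 in Irs2 and at -115 to -110 in Irs1. Of the 32851 RefSeq promoters, 6.02% held this motif in the same 250 bases. The FoxO core TGTTT followed the Irs2 E-box closely, at -37 to -33, and in Irs1 it lay at -111 to -107, overlapping the E-box, and at -32 to -28. It was present on either strand in 46.4% of promoters.

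The NFAT core GGAAA was found in Irs2 at -191 to -187 and in 55.6% of promoters. The core of the cAMP response element, TGACG, was found as its complement in Irs1 at -118 to -114, overlapping the E-box, and not in the 250 bases shown for Irs2, and 17.8% of promoters held it. None of these 4 motifs was in the window shown for Pik3r1, which lies at the start the tables give. A further RefSeq promoter of Pik3r1, not shown, held the cAMP response element core at -35 to -31. These are matches of letters in a short window, and the RefSeq start site of Irs2 lies 471 bases from the start that the tables give.

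For the step from low to 11 mM glucose, within-mouse changes were tested over all genes with edgeR's quasi-likelihood test and Benjamini-Hochberg adjustment, as for every adjusted p of this kind given here, with a term for the mouse. Pik3r1 was the 1 member of 8 past the threshold of 0.05, where 4.84% of the 16087 genes tested passed in either direction and 3.13% passed as higher. The median log2 change was 0.13 over the 8 members and -0.01 over all genes. By DESeq2, which passed more genes than edgeR here, as counted in the closing section, Irs2 and Pik3r1 passed.

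Pik3r1 (ENSMUSG00000041417, listed on chromosome 13 from 101680563 to 101768217, minus strand) measured 11.3 FPKM in mouse 1 and 8.31 in mouse 2 at low glucose, rising to 18.5 and 14.2 with 11 mM glucose. The 11G libraries were the highest of the 12, with no overlap with any other group. Pik3r1 rose by 0.79 ± 0.14 on the log2 scale (SE), a 1.73-fold change, with an adjusted p of 0.0154 and changes of 0.84 and 0.74 in the 2 mice. The adjusted p was 0.0585 without 2G mouse 2, 0.297 without 11G mouse 1, 0.120 without 11G mouse 2 and 0.242 without the mouse term, all with changes between 0.72 and 0.85.

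Irs2 was higher by 0.90 ± 0.25 on the log2 scale at 11G than at 2G (95% interval 0.34 to 1.45), by 0.58 in mouse 1 and 1.30 in mouse 2, and its adjusted p of 0.0683 missed the threshold. Without 2G mouse 1, the library with the high low-glucose value, the change was 1.40 with an adjusted p of 0.0180. Without 2G mouse 2 it was 0.49 with an adjusted p of 0.308. The estimate therefore ran over a wide range depending on which low-glucose animal was kept.

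Irs1 differed in the same direction, by 0.86 ± 0.43, but rested on mouse 2, with changes of 0.17 and 1.90 in the 2 mice and an adjusted p of 0.267; without 2G mouse 1 it was 1.94 with an adjusted p of 0.0254, and without 2G mouse 2 it was 0.15 with 0.863. It measured 0.786 FPKM in mouse 1 and 0.153 in mouse 2 at 2G, and 0.806 and 0.600 at 11G. The low value was 32 reads in 2G mouse 2, so the spread between mice was as large as the difference.

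Acinar markers moved with this comparison. Their share of counts was 0.0579% and 0.109% in the 2G libraries of mouse 1 and mouse 2, and 0.00808% and 0.0488% at 11G. Of 12 markers tested, 9 were lower at 11G, with medians of -2.82 and -1.21 on the log2 scale in the 2 mice. Among other markers the ductal gene Krt7 and the stellate gene Acta2 were lower and the beta cell genes G6pc2 and Pdx1 and the delta cell hormone gene Sst were higher. The alpha cell markers had medians of 0.15 and 1.104 in the 2 mice, although 1 of the 5 passed as lower. Their share of counts went from 1.58% to 1.30% in mouse 1 and from 0.354% to 0.758% in mouse 2. Their part in the changes of Irs2 and Pik3r1 was not tested, and since the 2G label carries no time, incubation and glucose cannot be told apart.

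Irs2 was lower with diazoxide at 11 mM glucose. Its change against 11G was -1.38 ± 0.25 on the log2 scale (95% interval -1.95 to -0.82), 2.61-fold lower, with an adjusted p of 0.0183. The change was -1.72 in mouse 1 and -1.10 in mouse 2. Irs2 was the 1 member of 8 past the threshold, where 3.79% of genes passed in either direction and 2.46% as lower.

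The call rested on the pairing of libraries by animal: without the mouse term the change was -1.50 and the adjusted p 0.397. It was also lost without 11G mouse 1 (adjusted p 0.154), 11G mouse 2 (0.150) or 11G+D mouse 1 (0.0830, change -0.97), and kept without 11G+D mouse 2 (0.00356, change -1.86). In the authors' deposited table for each animal, which sets 1 library against 1 library, the change was -1.72 with an adjusted p of 0.0122 in mouse 1 and -1.09 with an adjusted p of 0.603 in mouse 2.

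Pik3r1 was 12.2 FPKM in mouse 1 and 9.93 in mouse 2 with diazoxide, below both 11G libraries. Its change of -0.58 ± 0.14 had an adjusted p of 0.0526, just outside the threshold, and DESeq2 gave 0.0296. Without 11G+D mouse 2 the change was -0.70 with an adjusted p of 0.0424. It did not pass without 11G+D mouse 1 (-0.45, 0.231), 11G mouse 1 (-0.52, 0.500) or 11G mouse 2 (-0.64, 0.345), or without the mouse term (0.408). The 6 other members differed by -0.21 to 0.13 on the log2 scale, and the median over the 8 was -0.09 against 0.00 over all genes.

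Irs2 was also lower with FK506 at 11 mM glucose, by -1.78 ± 0.26 on the log2 scale against 11G (95% interval -2.36 to -1.21), 3.44-fold lower, with an adjusted p of 0.0253. The change was -1.75 in mouse 1 and -1.81 in mouse 2, the closest pair of values among the Irs2 comparisons in wild-type islets. Irs2 was the 1 member past the threshold in a comparison where 0.23% of genes passed in either direction and 0.218% as lower.

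Without the mouse term the change of Irs2 was -1.77 with an adjusted p of 0.882, and leaving out any 1 of the 4 libraries gave changes of -1.83 to -1.75 that did not pass. The adjusted p was 0.212 without 11G mouse 1, 0.158 without 11G mouse 2, 0.452 without 11G+FK mouse 1 and 0.640 without 11G+FK mouse 2. With 1 library left in an arm, that library is assumed to vary like the other groups. In the authors' deposited table Irs2 changed by -1.74 in mouse 1 with an adjusted p of 0.0567 and by -1.83 in mouse 2 with an adjusted p of 0.0231.

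Pik3r1 measured 12.3 FPKM in mouse 1 and 8.83 in mouse 2 with FK506, again below both 11G libraries. It changed by -0.70 in each mouse, and the fitted -0.70 ± 0.14 had an adjusted p of 0.100 by edgeR and 0.00864 by DESeq2. The members together had a median of -0.47 against 0.01 over all genes. Of the 8, 7 were below 0, but only Irs2 passed, and Akt2 and Insr differed by just -0.02 and -0.06.

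Igf1r, the receptor for insulin-like growth factor, showed a level with FK506 that was below every other wild-type library. It measured 8.70 FPKM in mouse 1 and 8.52 in mouse 2 with FK506. Mouse 1 otherwise measured 19.4 FPKM at 2G, 15.03 at 11G and 14.03 with diazoxide, and mouse 2 measured 10.8, 13.96 and 17.7. By edgeR none of its 7 comparisons passed: the change was -0.81 ± 0.24 against 11G with an adjusted p of 0.268, and -0.94 ± 0.24 against 11G+D with an adjusted p of 0.0981. The latter was -1.30 with an adjusted p of 0.0205 without 11G+D mouse 1, and -0.52 with 0.431 without 11G+D mouse 2. Against 2G the change was -0.80 ± 0.24 with an adjusted p of 0.105, which became -1.19 with 0.0398 without 2G mouse 2 and -0.35 with 0.359 without 2G mouse 1.

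Irs1 was 0.498 FPKM in mouse 1 and 0.280 in mouse 2 with FK506, against 0.664 and 0.554 with diazoxide. Its change against 11G of -0.96 ± 0.44 had an adjusted p of 0.466. The 2 mice gave -0.80 and -1.10, and the interval of -1.94 to 0.01 was wide at these counts.

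The 3 comparisons above share the 11G libraries, so a high or low 11G value moves all of them at once, and no count over them is given as support. Set side by side, the Irs2 changes were 0.90 for 11G against 2G, -1.38 for 11G+D against 11G and -1.78 for 11G+FK against 11G. For Pik3r1 they were 0.79, -0.58 and -0.70. Acinar markers had medians of 1.37 and -0.34 in the 2 mice for 11G+D against 11G and of 0.23 and -0.14 for 11G+FK against 11G. The 5 alpha cell markers had medians of -0.41 and -0.58 in the 2 mice for 11G+FK against 11G, and of -0.18 and -0.02 for 11G+D against 11G. Their share of counts was 1.30% at 11G, 1.16% with diazoxide and 1.03% with FK506 in mouse 1, and 0.758%, 0.763% and 0.331% in mouse 2. With FK506 this share was thus lower in both mice, as Irs2 was, and its part in the changes of the members was not tested.

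The beta cell markers took 11.3% and 8.63% of counts at 11G in mouse 1 and mouse 2, 10.1% and 10.9% with diazoxide, and 10.4% and 7.41% with FK506. Of the 10, 1 was lower in each comparison, G6pc2, whose product is a glucose-6-phosphatase of the beta cell. It fell by 2.26 on the log2 scale with diazoxide and by 2.32 with FK506.

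**Figure D2:**
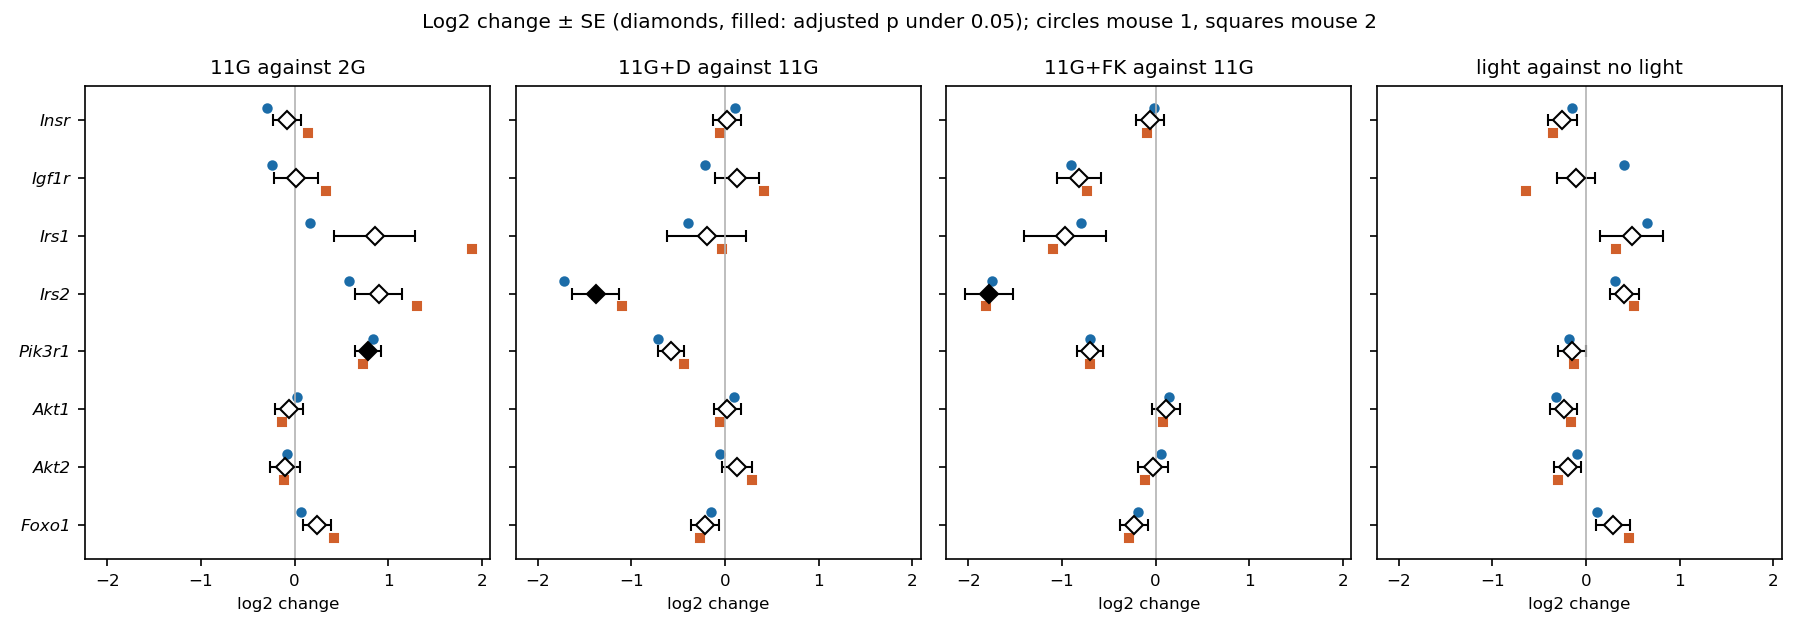
Log2 change of each member (horizontal axis) in 4 comparisons, with diamonds at the fitted change, bars of 1 SE, circles for mouse 1 and squares for mouse 2; filled diamonds passed an adjusted p of 0.05. Irs2 is filled at -1.38 with diazoxide and -1.78 with FK506, and Pik3r1 is filled at 0.79 for 11G against 2G.

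Drug-treated islets at 11 mM glucose were also set against low glucose, where 5.22% of all genes passed for 11G+D and 2.06% for 11G+FK. With diazoxide, 0 of 8 members passed by edgeR, by DESeq2 or at an unadjusted p under 0.05, although Irs1 passed without 2G mouse 1 (1.73, adjusted p 0.0372) and was -0.07 (0.937) without 2G mouse 2. With FK506, 0 passed by edgeR, and Irs2 and Igf1r passed by DESeq2 and at an unadjusted p under 0.05. Of the 16087 genes tested, 3660 had an unadjusted p under 0.05 for 11G+D against 2G and 3165 for 11G+FK against 2G. DESeq2 also passed more genes than edgeR for 11G+FK against 2G, as counted in the closing section. Irs2 was -0.49 ± 0.25 for 11G+D against 2G, -1.14 in mouse 1 and 0.21 in mouse 2, so the mice moved in opposite directions.

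For 11G+FK against 2G, Irs2 was -0.88 ± 0.25 with an adjusted p of 0.0995, and -1.17 and -0.51 in the 2 mice. Without 2G mouse 2 it was -1.28 with an adjusted p of 0.0397, and without 2G mouse 1 it was -0.38 with 0.369. Pik3r1 was 0.21 ± 0.14 for 11G+D and 0.09 ± 0.14 for 11G+FK against 2G.

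FK506 and diazoxide were compared directly at the same glucose and time. The difference in Irs2, FK506 over diazoxide, was -0.40 ± 0.26 on the log2 scale, with a 95% interval of -0.97 to 0.18 and an adjusted p of 0.474. The 2 mice gave -0.03 and -0.71, and without 11G+D mouse 2 the estimate was 0.06. By edgeR 0 of 8 members passed, where 1.17% of genes did, and Igf1r passed by DESeq2 and at an unadjusted p under 0.05. An unadjusted p under 0.05 was found for 2633 of the 16087 genes tested, and DESeq2 passed more genes than edgeR.

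In the islets with channelrhodopsin-2, light for 40 min left no member past the threshold, where 0.844% of the 15171 genes tested passed. Irs2 was higher by 0.41 ± 0.15 on the log2 scale (95% interval 0.09 to 0.73), 1.33-fold, by 0.31 in mouse 1 and 0.51 in mouse 2, and its adjusted p was 0.291. It was the 1 member with an unadjusted p under 0.05, where 1693 of the 15171 genes tested had one. By DESeq2 0 members passed. The authors' deposited table gave 0.31 and 0.50 for the 2 mice, each with an adjusted p of 1.

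Pik3r1 measured 11.4 and 11.0 FPKM without light and 10.4 and 10.2 with light in the 2 mice, a change of -0.15 ± 0.15. Its interval of -0.47 to 0.17 did not reach the 0.79 measured for 11G against 2G, a comparison that differs in genotype, stimulus and duration. Igf1r split the animals: it was 19.1 FPKM unlit and 26.1 lit in mouse 1, and 9.34 unlit and 6.04 lit in mouse 2. Its log2 changes of 0.40 and -0.64 had opposite signs in the 2 animals.

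The remaining members varied little. Insr, the insulin receptor, ran from 7.27 FPKM in ChR2(+)LIGHT mouse 2 to 13.05 in 2G mouse 1, with a median of 9.41. Its fitted changes ran from -0.25 to 0.02 over the 7 comparisons, and its smallest adjusted p was 0.590. The 2G mice alone spanned 8.70 to 13.05 FPKM.

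Foxo1, the transcription factor that AKT holds in the cytoplasm, was 9.17 and 7.36 FPKM at 2G, 8.78 and 10.1 at 11G, 8.61 and 7.92 after diazoxide and 8.35 and 8.40 after FK506, with mouse 1 first. It was 6.21 and 7.53 FPKM without light and 6.95 and 10.4 with light. The groups overlapped, its fitted changes ran from -0.23 to 0.29, and its smallest adjusted p was 0.357.

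Akt1 measured 74.8 and 94.1 FPKM at 2G, 69.6 and 87.8 at 11G, 81.0 and 80.2 after diazoxide and 83.0 and 93.6 after FK506 in mouse 1 and mouse 2. Akt2 measured 51.4 and 52.0, 44.4 and 49.1, 46.5 and 56.9, and 49.97 and 45.9 in the same order. Neither kinase showed a group that stood clear of the others. Across the 7 comparisons the 95% intervals of Akt1 lay between -0.55 and 0.44 and those of Akt2 between -0.51 and 0.48. The ratio of Akt1 to Akt2 stayed between 1.36 and 2.04 in every library.

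The pathway around these members was described by 102 other genes in 11 lists, of which 97 were tested in wild-type islets. The lists were chosen with earlier results of these data known, so the shares given here and below are descriptions and no test of enrichment. For 11G against 2G, 15 passed (15.5%, against 4.84% of all genes), 8 higher and 7 lower. For 11G+D against 11G, 7 passed (7.22%, against 3.79% of all genes), and for 11G+FK against 11G, 1 passed (1.03%, against 0.23%). Of 44 calls over the 7 comparisons, 44 held by DESeq2 and 2 without the mouse term, and few held in every fit that left out a library. The single calls below thus depend on the pairing by animal and on single libraries.

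Ligands were led by the insulin genes Ins2 and Ins1, with means of 104832 and 20578 FPKM, whose changes at 11G against 2G were 0.12 ± 0.39 and 0.36 ± 0.31 and did not pass. Igf2, encoding insulin-like growth factor 2, was the 1 gene of 10 that passed, lower by -1.05, from 2.13 and 3.69 FPKM at 2G to 0.963 and 1.80 at 11G. Among receptors, Insrr, encoding the insulin receptor-related receptor, was more abundant than Insr, with a mean of 56.8 FPKM. Neither Insrr nor the clearance receptor gene Igf2r passed in any comparison with 11G, their closest adjusted p being 0.0683 for Insrr with diazoxide.

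Of the other adaptors, Shc1, which links receptors to the Ras pathway, had a mean of 104 FPKM and Grb2, its partner, 46.5 FPKM. Shc1 differed by 0.71 ± 0.18 with diazoxide against 11G with an adjusted p of 0.0591, and Grb2 by 0.30 ± 0.14 with 0.265. In the MAP kinase arm Mapk3, encoding ERK1, had a mean of 125 FPKM and a change of -0.16 ± 0.14 at 11G against 2G.

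The phosphatases and inhibitors that act on the receptors or adaptors rose at 11G in 3 of 9 tested genes. These were Ptpn1 (0.93 ± 0.21) and Ptpn2 (0.80 ± 0.19), encoding tyrosine phosphatases that remove activating phosphates, and Socs3 (0.73 ± 0.17), encoding a suppressor of cytokine signalling that also targets the adaptors. Others of the list were lower at 11G in both mice without passing. Socs1 was 4.95 and 5.48 FPKM at 2G and 2.76 and 2.78 at 11G. Grb14 was 14.0 and 10.2 FPKM at 2G and 7.74 and 8.72 at 11G. Ptpn2 was 22.8 and 24.6 FPKM at 2G, 42.4 and 37.3 at 11G, 17.3 and 22.6 after diazoxide and 23.6 and 20.2 after FK506. Both 11G libraries stood above the other 6 wild-type libraries, and Ptpn2 fell by 1.02 on the log2 scale with diazoxide, with an adjusted p of 0.0200.

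Beside Pik3r1, 2 of 6 PI3K genes rose at 11G: Pik3ca, encoding a catalytic subunit (0.70 ± 0.14), and Pik3r3, encoding another regulatory subunit (1.08 ± 0.20). Pik3ip1, encoding a membrane inhibitor of PI3K, moved the other way. It measured 6.09 FPKM at 2G, 2.30 at 11G and 8.62 with diazoxide in mouse 1, and 7.28, 4.34 and 7.77 in mouse 2. It fell at 11G against 2G, with an adjusted p of 0.0417, and rose by 1.33 with diazoxide against 11G. Inppl1, encoding the lipid phosphatase SHIP2, rose by 0.87 ± 0.15 at 11G and fell by 0.72 with diazoxide, while with FK506 it stayed at 43.6 and 42.9 FPKM, as high as at 11G (43.5 and 38.5).

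Around AKT, Trib3, encoding a pseudokinase that binds AKT, was 96.0 and 152 FPKM at 2G, 40.6 and 75.9 at 11G, 35.7 and 57.8 after diazoxide and 83.1 and 125 after FK506. It fell by 1.07 ± 0.14 at 11G against 2G and was higher by 1.12 ± 0.14 with FK506 than with diazoxide. In the mTOR list 1 of 13 genes passed at 11G, Eif4ebp1, encoding a repressor of translation initiation, which fell by 0.59. Eif4ebp1 too was higher with FK506 than with diazoxide, by 0.92 ± 0.14.

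Of 14 tested FoxO factors and targets, 3 fell at 11G and 1 rose. Gadd45a, a growth arrest gene, fell by 1.66, Ccng2, encoding cyclin G2, by 0.99 and Sesn3, encoding a sestrin, by 0.95, while Cited2, encoding a transcriptional coregulator, rose by 0.91 ± 0.21. Sesn3 was -0.58 without 2G mouse 1, and Cited2 was 0.51 without 11G mouse 1. The list had a median of -0.33 against -0.01 over all genes. With diazoxide Ccng2 rose by 0.66 ± 0.15 and Cited2 fell by 1.08 against 11G, a change that was -0.69 without 11G mouse 1. These genes also answer to other factors, and Foxo1 itself had a change of 0.24 ± 0.15 at 11G.

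Among 15 regulators of Irs2 transcription, Crem was the 1 gene that passed at 11G against 2G and the 1 pathway gene that passed with FK506 against 11G. Crem encodes CREB family factors that include both activators and the repressor ICER, and it is itself induced by cAMP and CREB. It was 9.999 and 9.40 FPKM at 2G, 29.3 and 22.2 at 11G, 8.59 and 9.69 after diazoxide and 11.6 and 8.98 after FK506. The 11G libraries were the highest of the 12. Crem rose by 1.45 ± 0.20 at 11G and fell by 1.50 with diazoxide and 1.39 with FK506, with adjusted p of 0.00474, 0.00465 and 0.0218. The last of these calls was lost without any 1 of its 4 libraries, with changes from -1.60 to -1.16.

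Creb1, Crtc2 and the calcineurin subunit gene Ppp3cb changed by -0.02, 0.08 and -0.10 with FK506 and did not pass. Other listed regulators moved further, also without passing. Ppp3r1, another calcineurin subunit gene, was 40.9 and 38.0 FPKM at 11G and 32.2 and 27.9 with FK506. Srebf1 was 26.3 and 28.4 FPKM at 11G and 38.8 and 35.2 with FK506. The 15 regulators had a median change of 0.02 with FK506 against 11G. Nfatc2, encoding an NFAT factor, was 7.28 and 7.68 FPKM with diazoxide, above the 2.90 to 4.45 FPKM of the other wild-type libraries, and rose by 1.20 ± 0.19 against 11G. With FK506 it was 4.43 and 4.44 FPKM.

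Against 2G, 11 pathway genes passed with diazoxide (11.3%, against 5.22% of all genes) and 4 with FK506 (4.12%, against 2.06%). In the same comparisons 4 and 8 of 12 acinar markers were lower, with medians of -1.50 and -1.84 on the log2 scale, and their part was not tested. With diazoxide the adaptor exchange factor gene Sos1, the mTOR complex gene Rptor, the S6 kinase gene Rps6kb1, Srebf1 and Nfatc2 were higher by 0.61 to 1.07, and Gab2, Pdk4, Eif4ebp1, Sesn3, Trib3 and Gadd45a were lower by -1.38 to -0.62. Of these Sesn3 was -0.66 without 2G mouse 1, and Gadd45a was -0.48 when 11G+D mouse 2 was left out and -1.34 when mouse 1 was. With FK506 Pik3r3 and Inppl1 were higher, by 0.94 and 0.89, and Ccng2 and Sesn3 were lower, by -0.71 and -1.33.

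Under light, 4 of 96 tested pathway genes passed (4.17%, against 0.844% of all genes). Igfbp3, encoding a binding protein for insulin-like growth factors, was 104 and 128 FPKM unlit and 195 and 278 lit, a rise of 0.99 ± 0.15. Sgk1, encoding a kinase related to AKT, was 9.10 and 11.3 FPKM unlit and 14.1 and 30.4 lit, a rise of 1.01 ± 0.20 that was 0.57 without ChR2(-)LIGHT mouse 2 and 1.41 without ChR2(-)LIGHT mouse 1. Inpp5d, encoding the lipid phosphatase SHIP1 known from blood cells, rose by 1.15 ± 0.23, and Gadd45a fell by 0.84. In the same comparison the endothelial genes Flt1 and Cdh5 were higher (0.93 and 0.76) and 2 of 12 acinar markers were lower, with acinar medians of -0.34 and -2.73 in the 2 mice. Of the beta cell markers 1 of 10, Nkx6-1, was lower (-0.75), as was 1 of 9 ductal markers, Mmp7 (-2.39). Of 7 macrophage and immune markers tested, 0 passed, with medians of -0.07 and -0.18 in the 2 mice. The part of all these markers in the light calls was not tested. None of the 4 calls held when 1 library was left out.

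**Figure D3:**
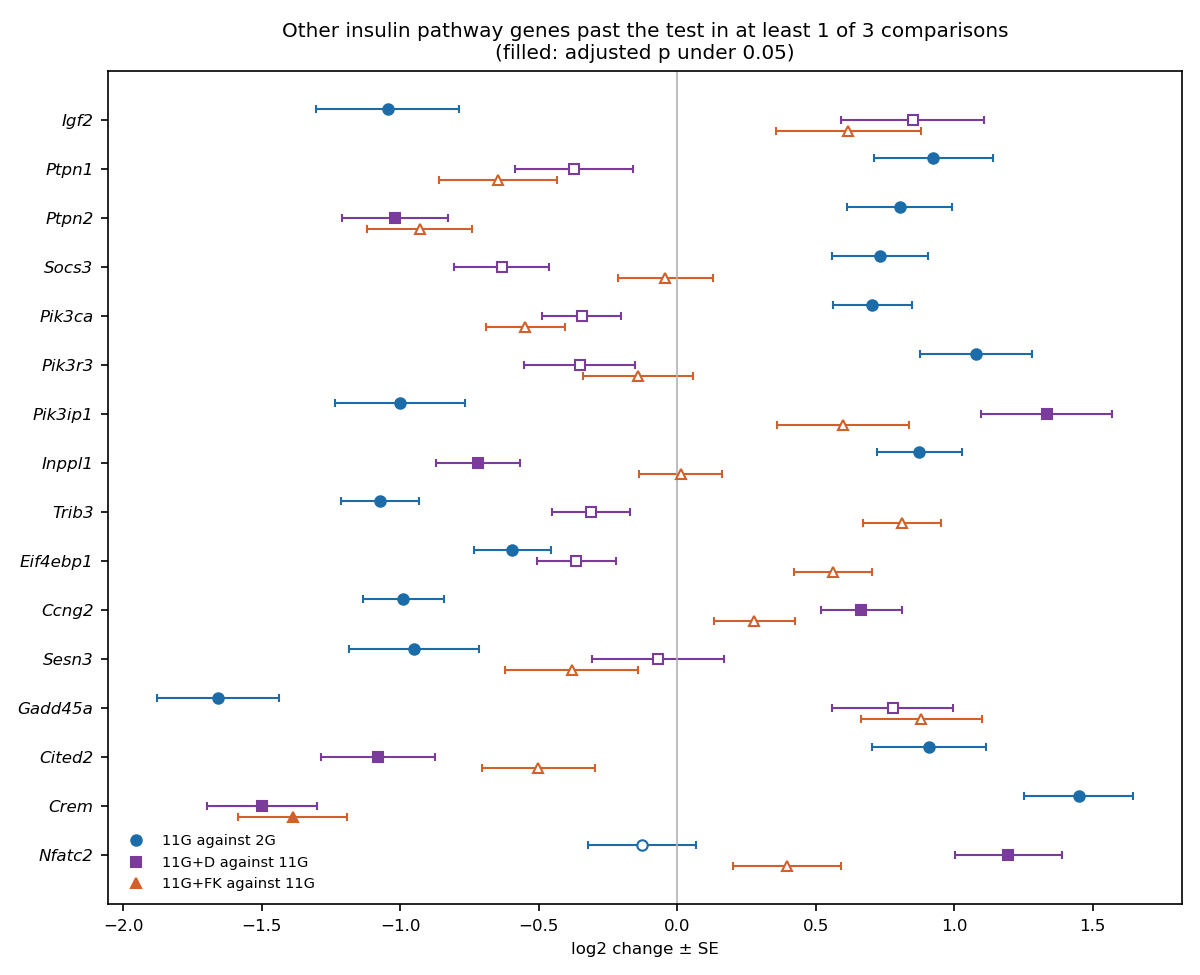
Log2 change (horizontal axis, with bars of 1 SE) of the 16 pathway genes past an adjusted p of 0.05 in at least 1 of 3 comparisons, with circles for 11G against 2G, squares for 11G+D against 11G and triangles for 11G+FK against 11G; filled symbols passed. Crem is filled in all 3, at 1.45, -1.50 and -1.39.

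The genes whose level followed Irs2 most closely across the 8 wild-type libraries were found by Pearson's r of log2 CPM (counts scaled to library size) over 11712 named genes whose mean FPKM was 1 or more. Pex5l, encoding a regulator of HCN channels, had r = 0.99, and Arfgef1, encoding an activator of ARF proteins, and Vkorc1l1, encoding a vitamin K epoxide reductase, had r = 0.98. Ksr2, encoding a scaffold of the MAP kinase cascade, Prox1, encoding a homeobox factor, and Slc30a4, encoding a zinc transporter, also had r = 0.98. The libraries share animals and depth differences, so these values describe the 8 libraries.

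Over all 12 libraries the correlation stayed high for Pex5l (0.95) and Ksr2 (0.94), was 0.86 for Prox1, 0.68 for Arfgef1 and 0.61 for Vkorc1l1, and dropped to 0.42 for Slc30a4. As an example, Prox1 measured 12.7 and 5.48 FPKM at 2G, 19.4 and 10.7 at 11G, 6.29 and 5.74 after diazoxide and 8.12 and 4.31 after FK506. Its mouse 1 libraries were the higher ones in every wild-type group, as for Irs2. Under light Prox1 changed by -0.36 and -0.47 on the log2 scale in the 2 mice, with an adjusted p of 0.282, whereas Irs2 was higher in both. Among the other members Pik3r1 came closest over the 8 wild-type libraries, at r = 0.86 and rank 362, and Akt1 had r = -0.83. Over all 12 libraries these values were 0.68 for Pik3r1 and -0.28 for Akt1. The fitted Akt1 changes were small, at -0.06 for 11G against 2G, and 0.02 for 11G+D and 0.11 for 11G+FK against 11G.

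**Figure D4:**
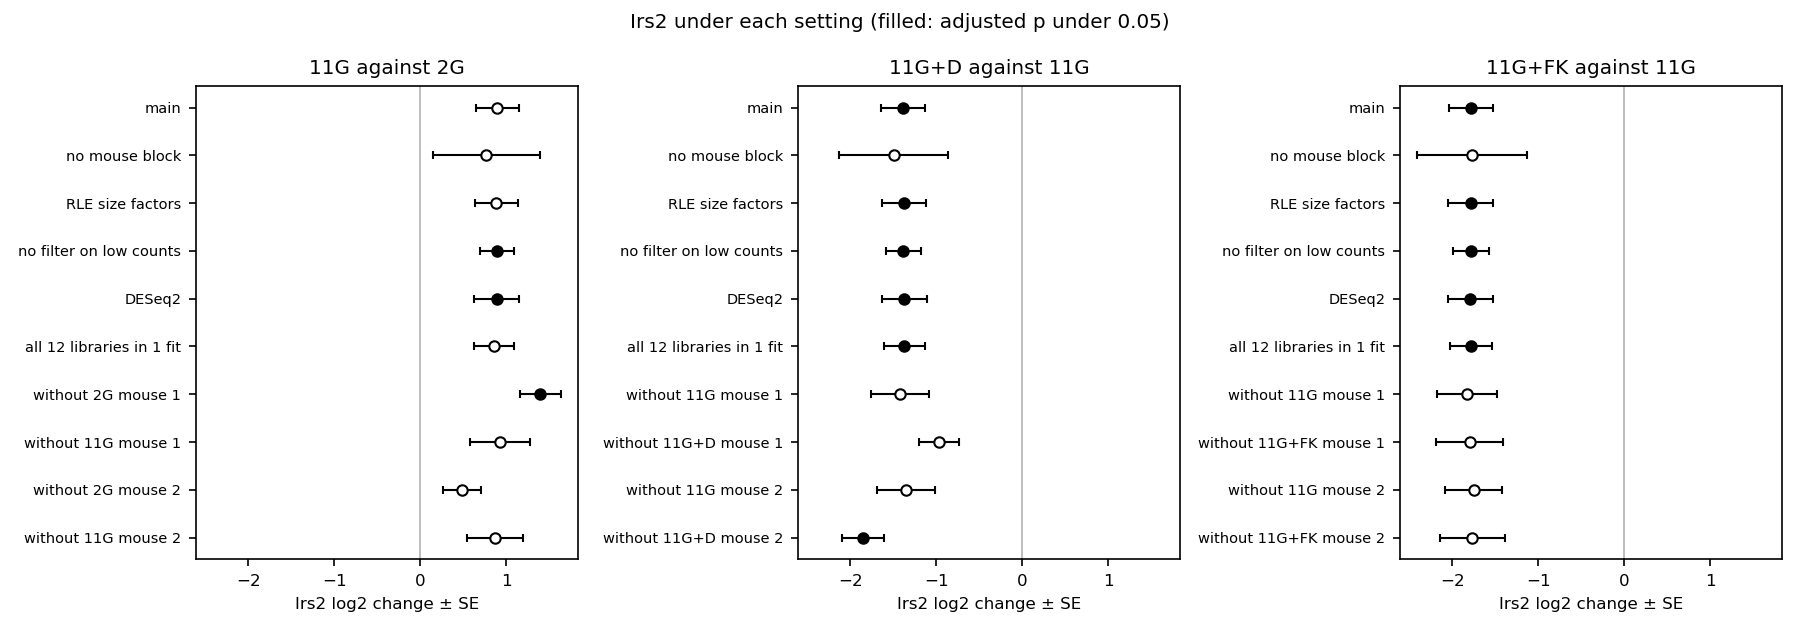
Log2 change of Irs2 with bars of 1 SE (horizontal axis) under each way of processing (vertical axis) for 3 comparisons; filled circles passed an adjusted p of 0.05. The estimates stay on 1 side of 0 throughout, from 0.49 to 1.40 for 11G against 2G, -1.86 to -0.97 with diazoxide and -1.83 to -1.75 with FK506, while the calls change.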

How the data were processed

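The 8 tables deposited by the authors each set 2 libraries of 1 mouse side by side. Per the file headers they hold raw read counts, FPKM and normalized counts, the last being a signal in a constant ratio to the raw counts. Each also holds the authors' log2 fold change and the p-values deposited with it. Not given in the sources used here were the authors' aligner, counting tool, strand setting, genome build and test. Libraries were joined by gene identifier. Each mouse's 11G library, present in 3 tables, differed between them at 0 genes.

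Raw counts were fitted with edgeR 4.0.16 (R 4.3.3): TMM scaling, filterByExpr (minimum count 10, total 15), the quasi-likelihood test with mouse as a block, and Benjamini-Hochberg adjustment over all genes tested, threshold 0.05. Wild-type (8 libraries, 3 residual degrees of freedom) and ChR2 libraries (4 libraries, 1 degree of freedom) had separate fits. Same-numbered libraries come from 1 animal by the labels, and their deviations from the group means correlated at 0.15 to 0.46 and 0.50. SE is the change over the square root of F. DESeq2 1.42.0, relative log expression (RLE) factors, no filter, no block, 1 fit over all libraries, and leaving out each library were alternatives. FPKM was used for levels only.

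Members, gene lists and tests were chosen with earlier results of these data known. All 8 members are named. So are every listed pathway gene past the threshold, up to 3 further genes per list by level, and the 6 genes most correlated with Irs2. G6pc2, Krt7, Acta2, Pdx1, Sst, Flt1, Cdh5, Nkx6-1, Mmp7, Creb1, Socs1 and Grb14 were named after their values were seen, and Ptf1a after its absence was seen.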

Additional observations from a re-analysis of the deposited data

How the results depend on the processing

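Over all genes tested, the number past the threshold was 778 for 11G against 2G, 610 for 11G+D against 11G, 37 for 11G+FK against 11G, 840 for 11G+D against 2G, 332 for 11G+FK against 2G, 188 for 11G+FK against 11G+D, 128 for light against no light. Without the mouse term, that is without pairing by animal, it was 68 for 11G against 2G, 59 for 11G+D against 11G, 1 for 11G+FK against 11G, 10 for 11G+D against 2G, 5 for 11G+FK against 2G, 5 for 11G+FK against 11G+D, 0 for light against no light, the last with 654 genes at an unadjusted p under 0.05. The Irs2 changes were then -1.50 with diazoxide and -1.77 with FK506 against 11G, and neither passed; the cause was not tested. With no filter on low counts the numbers were 1672 for 11G against 2G, 1085 for 11G+D against 11G, 309 for 11G+FK against 11G, 1573 for 11G+D against 2G, 992 for 11G+FK against 2G, 617 for 11G+FK against 11G+D, 419 for light against no light, and Irs2 passed for 11G against 2G (0.90) and 11G+FK against 2G (-0.89). DESeq2 gave 1315 for 11G against 2G, 224 for 11G+FK against 11G, 775 for 11G+FK against 2G, 501 for 11G+FK against 11G+D, with Irs2 past the threshold at 0.89 and -0.90 for 11G and 11G+FK against 2G. One fit over all 12 libraries gave 58 for 11G+FK against 11G, 6 for light against no light. Leaving out 1 library moved these numbers to 42 (without 11G mouse 1) to 1405 (without 2G mouse 1) for 11G against 2G, 45 (without 11G mouse 1) to 765 (without 11G+D mouse 2) for 11G+D against 11G, 0 (without 11G+FK mouse 2) to 11 (without 11G mouse 2) for 11G+FK against 11G, 246 (without 2G mouse 2) to 1140 (without 2G mouse 1) for 11G+D against 2G, 4 (without 11G+FK mouse 2) to 162 (without 2G mouse 2) for 11G+FK against 2G, 3 (without 11G+FK mouse 1) to 486 (without 11G+D mouse 1) for 11G+FK against 11G+D, 0 (without ChR2(-)LIGHT mouse 2) to 29 (without ChR2(-)LIGHT mouse 1) for light against no light. The Irs2 change ran over 0.49 to 1.40 for 11G against 2G, -1.86 to -0.97 for 11G+D against 11G, -1.83 to -1.75 for 11G+FK against 11G, -0.94 to -0.0046 for 11G+D against 2G, -1.28 to -0.38 for 11G+FK against 2G, -0.83 to 0.065 for 11G+FK against 11G+D, 0.29 to 0.50 for light against no light. Changes near 0 turned sign: Igf1r 11G against 2G was -0.0050 without pairing, Igf1r light against no light was 0.15 without pairing, Foxo1 11G+FK against 2G was -0.0092 with RLE factors, Foxo1 11G+FK against 2G was -0.0092 by DESeq2, Igf1r 11G against 2G was -0.023 over all 12 libraries, Foxo1 11G+FK against 2G was -0.029 over all 12 libraries. Without 1 library Irs1 ran from -0.79 to 1.002 for 11G+FK against 2G, -0.73 to 0.28 for 11G+D against 11G, -0.070 to 1.73 for 11G+D against 2G. Without 1 library Insr ran from -0.26 to 0.10 for 11G against 2G, -0.23 to 0.13 for 11G+D against 2G, -0.31 to 0.039 for 11G+FK against 2G, -0.10 to 0.13 for 11G+D against 11G, -0.18 to 0.057 for 11G+FK against 11G. Without 1 library Igf1r ran from -0.37 to 0.47 for 11G against 2G, -0.27 to 0.58 for 11G+D against 2G, -0.29 to 0.49 for 11G+D against 11G, -0.66 to 0.38 for light against no light. Without 1 library Akt1 ran from -0.073 to 0.17 for 11G+FK against 2G, -0.068 to 0.11 for 11G+D against 11G, -0.18 to 0.061 for 11G against 2G, -0.15 to 0.084 for 11G+D against 2G, -0.0036 to 0.17 for 11G+FK against 11G+D. Without 1 library Akt2 ran from -0.076 to 0.31 for 11G+D against 11G, -0.18 to 0.22 for 11G+D against 2G, -0.34 to 0.049 for 11G+FK against 11G+D, -0.18 to 0.12 for 11G+FK against 11G, -0.28 to 0.021 for 11G+FK against 2G. Without 1 library Foxo1 ran from -0.051 to 0.0081 for 11G+FK against 11G+D, -0.11 to 0.17 for 11G+D against 2G, -0.13 to 0.14 for 11G+FK against 2G. Without 1 library Pik3r1 ran from -0.25 to 0.00038 for 11G+FK against 11G+D. Of the changes of the 8 members under the other settings, 257 stayed on their side of the threshold with their direction, 14 gained a call, 3 lost one and 6 turned; without 1 library, 171 stayed, 7 gained, 10 lost and 36 turned. With 2 mice per group and 3 residual degrees of freedom, or 1 in the light comparison, every call rests on 1 pair of animals, and Irs1 had only 32 to 162 reads per library.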
